A study of Homo sapiens with 11 samples.

Results

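Transcripts of 10 genes of the endoplasmic reticulum (ER) folding machinery were followed in tumours of mice given the drug evexomostat or its vehicle. The genes are HSPA5, HSP90B1, CALR, CANX, PDIA4, PDIA6, DNAJB9, XBP1, HERPUD1 and SDF2L1. They were taken by symbol from the deposited tables, where all 10 are among 28152 symbols, and all 10 were among the 16653 genes with enough counts to test. The tumours grew from BT-474 cells, a human breast cancer line labelled hormone receptor and HER2 positive, placed in the mammary fat pad of female athymic nude mice. These mice lack a thymus and so lack most T cells. All animals of both groups carried an estradiol pellet of 0.72 mg made to last 90 days, and a tumour had to pass 95 cubic millimetres before enrolment. In the vehicle group (6 libraries) animals received 5% mannitol in water under the skin every 4 days, and in the evexomostat group (5 libraries) they received the drug at 12 mpk in the same liquid and on the same schedule. Evexomostat inhibits MetAP2, methionine aminopeptidase 2, which cuts the starting methionine off many new proteins; the sample titles call it SDX-7320 and the treatment field SDX-7230. The label of every library gives day 33. The question was whether transcripts of this machinery differed between treated and vehicle tumours.

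Secreted and membrane proteins fold in the ER with the help of chaperones that hold unfolded chains, lectins that bind their sugars and isomerases that form their disulfide bonds. When unfolded proteins build up, the sensors IRE1 (gene ERN1), PERK (EIF2AK3) and ATF6 start the unfolded protein response. IRE1 splices the mRNA of XBP1 into a form that encodes an active transcription factor, and XBP1 and ATF6 raise the transcription of chaperones and of genes for the degradation of misfolded ER proteins. Secretory and cancer cells rely on this response. Gene counts sum all forms of the XBP1 mRNA, so spliced and unspliced XBP1 were not told apart here.

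The promoters of these genes are known for the ER stress response element (ERSE), which ATF6 binds with NF-Y. Matches were therefore likely before the search, and the shares below are not independent of the choice of genes. ERSE was searched as CCAAT, then any 9 bases, then CCACG, and the related ERSE-II as ATTGG, then any 1 base, then CCACG, on both strands of the 250 bases before each RefSeq start site (build GRCh38.p14). An ERSE was found at HSPA5, HSP90B1, CALR, CANX, PDIA6 and XBP1, which is 6 of 10 genes, against 25 of 27305 genes in the whole table (0.0916%). HSP90B1 had 2. An ERSE-II was found at HERPUD1 and SDF2L1, against 18 of 27305 genes (0.0659%). DNAJB9 and PDIA4 had neither in this window, and no member had the core of the XBP1 element (TGACG followed by TGG or TGA), which 1.22% of genes hold. All 10 had CCAAT and CCACG somewhere in the window, and 37% and 37.5% of all genes had these short words. A match describes letters only. Where a gene has several start sites, the one with the match is printed. The windows are chr9:125241344-125241593 on the minus strand, chr12:103930160-103930409 on the plus strand, chr22:28800570-28800819 on the minus strand, chr2:10812786-10813035 on the minus strand, chr16:56931892-56932141 on the plus strand and chr22:21642052-21642301 on the plus strand. Each is printed 5′ to 3′ along its gene's strand, with the fixed letters of ERSE or ERSE-II in capitals, those on the opposite strand reading CGTGG and ATTGG or CCAAT.

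HSPA5: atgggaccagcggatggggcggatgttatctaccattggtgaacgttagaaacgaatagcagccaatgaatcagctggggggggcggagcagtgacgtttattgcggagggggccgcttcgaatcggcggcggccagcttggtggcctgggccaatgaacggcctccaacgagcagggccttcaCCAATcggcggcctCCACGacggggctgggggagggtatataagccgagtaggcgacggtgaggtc
HSP90B1: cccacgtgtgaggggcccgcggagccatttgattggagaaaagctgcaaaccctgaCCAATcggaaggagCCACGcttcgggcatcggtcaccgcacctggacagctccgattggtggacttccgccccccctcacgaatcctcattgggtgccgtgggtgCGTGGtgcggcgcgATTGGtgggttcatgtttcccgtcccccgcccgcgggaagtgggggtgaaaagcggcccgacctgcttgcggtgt
XBP1: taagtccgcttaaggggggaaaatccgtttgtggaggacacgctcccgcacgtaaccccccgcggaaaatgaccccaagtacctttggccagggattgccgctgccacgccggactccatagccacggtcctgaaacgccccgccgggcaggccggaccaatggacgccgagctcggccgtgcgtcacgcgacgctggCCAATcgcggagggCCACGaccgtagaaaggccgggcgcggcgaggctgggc
PDIA6: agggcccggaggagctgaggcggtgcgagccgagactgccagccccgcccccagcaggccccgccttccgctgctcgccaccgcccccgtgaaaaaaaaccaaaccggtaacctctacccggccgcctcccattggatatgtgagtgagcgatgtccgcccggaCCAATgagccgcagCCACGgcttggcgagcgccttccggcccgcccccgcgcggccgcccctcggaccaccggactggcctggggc
HERPUD1: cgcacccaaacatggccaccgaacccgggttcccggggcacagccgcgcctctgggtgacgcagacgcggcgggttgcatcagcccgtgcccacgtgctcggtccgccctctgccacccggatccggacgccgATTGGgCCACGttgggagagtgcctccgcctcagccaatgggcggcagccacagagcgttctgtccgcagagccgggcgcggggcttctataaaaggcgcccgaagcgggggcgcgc
SDF2L1: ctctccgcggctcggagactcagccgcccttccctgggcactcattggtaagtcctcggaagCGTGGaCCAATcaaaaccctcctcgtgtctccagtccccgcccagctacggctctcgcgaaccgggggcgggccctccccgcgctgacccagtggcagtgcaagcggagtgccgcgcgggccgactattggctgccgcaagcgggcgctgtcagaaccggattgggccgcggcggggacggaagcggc

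In HSPA5 and XBP1 the ERSE lay close to the start site, ending 48 and 34 bases before it. In PDIA6 it ended 68 bases before the start. The ERSE-II of HERPUD1 ended 107 bases before its start, and that of SDF2L1, on the opposite strand, 178 bases before.

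Library totals ranged from 22808033 to 39249329 counts, and the 10 genes together held 0.307% to 0.515% of a library. A floor set from counts covers counting error only. The intervals of fold changes given below also take in the spread between libraries. At these depths 3 counts are 0.0764 to 0.132 RPM (the deposited reads-per-million unit), far below every member. Vehicle replicate 001 stood apart from the rest. Ribosomal protein genes took 14.5% of its reads, while they took 4.89% to 7.10% of the 5 other vehicle libraries and 7.16% to 8.76% of the treated ones, and its TMM scaling factor was the lowest, 0.860. Defining markers of a HER2-positive luminal line were low, with ERBB2 at 22.97 to 65.3 RPM and ESR1 at 0.597 RPM or less, while KRT8 averaged 332 RPM. Of 11 luminal and HER2 markers, 0 of 9 tested were called, and their summed level was 338 to 756 RPM under vehicle and 478 to 651 RPM under evexomostat. The counted symbols are human, host cells are those of a mouse, and the treatment of mouse reads is not given. The host marker values below therefore do not show how many host cells a tumour held. Plasma cells express XBP1 highly, and 5 of their 7 markers, JCHAIN, MZB1, TNFRSF17, POU2AF1 and IRF4, averaged 0.134 RPM or less. The other two, SDC1 and PRDM1, which other cell types also express, averaged 63.6 and 11.2 RPM, and the list summed to 28.7 to 115.8 RPM under vehicle and 58.3 to 89.5 under evexomostat. Skeletal muscle genes (12 listed) summed to 4.77 to 21.8 RPM under vehicle and 6.61 to 551 RPM under evexomostat, with the highest sum in evexomostat replicate 005. Summed markers of fibroblasts (10 genes) were 470 to 2212 RPM under vehicle and 554 to 1228 under evexomostat, and those of macrophages (8 genes) 59.7 to 93.7 and 67.5 to 84.0. Endothelial markers (8 genes) summed to 11.8 to 24.9 and 12.3 to 17.3 RPM, and adipocyte markers (7 genes, ADIPOQ at 0 in all libraries) to 10.1 to 63.1 and 8.59 to 28.6. None of these lists held a called gene, but the tested muscle genes leaned 1 way. All 7 were above 0 under evexomostat, 6 of them at an unadjusted p under 0.05 in edgeR. Their median log2 fold change was 3.48. Over all tested genes 7427 of 16653 were above 0, and 802 were higher at such a p in edgeR. The other listed muscle genes had too few counts to test. Of these MYLPF, TNNT3 and CKM stayed at 0.300 RPM or less, while TNNI2 reached 3.14 and RYR1 2.30. The part of muscle genes in the results was not tested.

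No member changed past the threshold. The count of members with an adjusted p under 0.05 was 0 of 10 by edgeR's quasi-likelihood test, where 0.606% of all tested genes passed (101 of 16653). DESeq2 and limma also gave 0 of 10. At an unadjusted p under 0.05 there were 2 of 10, HSP90B1 and DNAJB9, both lower under evexomostat. Over all tested genes 13.4% had such a p, and 8.55% had one and were lower. The fitted change was below 0 in 9 of 10 members, with HERPUD1 as the exception, against 55.4% of all genes. The members' median log2 fold change was -0.23, against -0.04 over all tested genes. In no member did the groups separate fully, while they did in 2.97% of tested genes. In a bulk tumour, fewer cells that express a gene and less RNA per cell cannot be told apart. The tumours are numbered but the labels do not say that each came from its own animal, so the p-values measure the spread between these libraries.

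**Figure D1:**
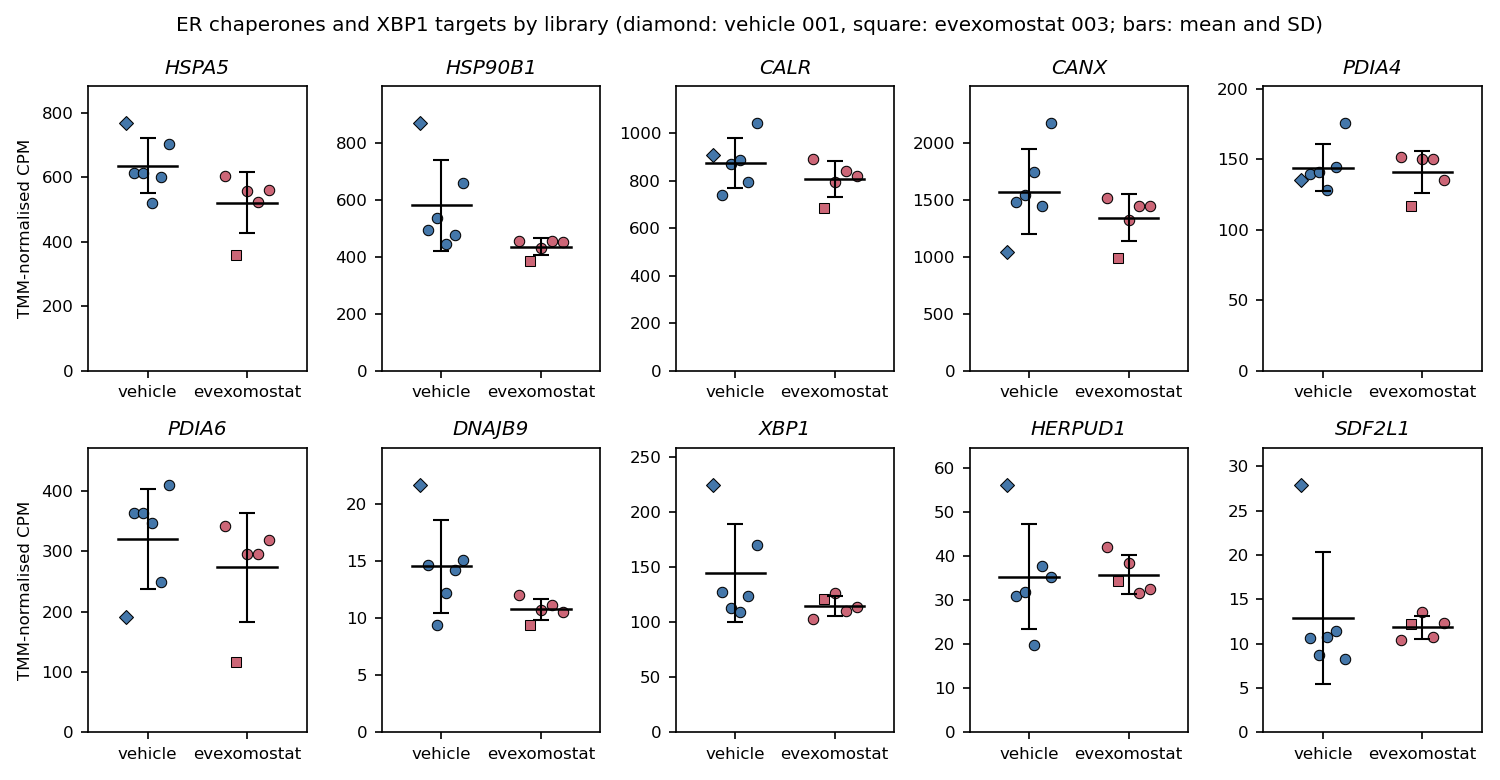
TMM-normalised CPM (y axis from 0) of the 10 genes in 6 vehicle (blue) and 5 evexomostat (red) libraries, with mean and SD as black bars. The groups overlap in every panel, and vehicle replicate 001 (diamond) and evexomostat replicate 003 (square) often lie at the edges.

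The main soluble chaperones included 1 of the 2 members with an unadjusted p under 0.05. HSPA5 encodes BiP, the ER member of the Hsp70 family, which also holds the stress sensors inactive. Its level, in TMM-normalised CPM (counts scaled like RPM to an effective library size), was 521.5 to 768.4 under vehicle, with a median of 613.6. Under evexomostat it was 604.4, 360.6, 556.7, 524.3 and 560.3 CPM in replicates 002, 003, 004, 005 and 007. All 5 treated libraries lay below the vehicle median, but only replicate 003 lay below the vehicle range. The log2 fold change was -0.29 (SE 0.16, 95% interval -0.63 to 0.05, edgeR adjusted p 0.463). It was -0.22 without vehicle replicate 001, -0.18 without evexomostat replicate 003 and -0.13 (SE 0.10) without both.

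HSP90B1 encodes GRP94, the ER member of the Hsp90 family, which folds integrins and toll-like receptors among other clients. It ranged from 443.3 to 868.3 CPM under vehicle, with a median of 515.5. Under evexomostat the values were 454.4, 386.0, 432.4, 453.7 and 450.2 CPM in the same order of replicates. The treated libraries were tightly grouped, and only vehicle replicate 005 (443.3 CPM) kept the groups from separating. The log2 fold change was -0.41 (SE 0.18, 95% interval -0.79 to -0.03), the interval being for this gene alone, and the edgeR adjusted p over all genes was 0.325. Vehicle replicate 001 was the highest at 868.3 CPM, and without it the change was -0.26 (SE 0.11, edgeR adjusted p 0.191). A pseudogene row, HSP90B2P, averaged 1.2 RPM. By whole gene span in GENCODE 29, C12orf73 and TTC41P overlap HSP90B1 on the opposite strand, as CBY3 does CANX and ATP6V1C2 does PDIA6. The labels do not state whether counting used strand.

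Neither lectin chaperone passed the test. CALR encodes calreticulin, a soluble lectin that binds calcium and newly made glycoproteins. It was 740.3 to 1043 CPM under vehicle (median 880.5) and 891.5, 687.4, 795.7, 841.6 and 819.5 CPM under evexomostat. The treated values fell inside the vehicle range in 4 of 5 libraries. The log2 fold change was -0.12 (SE 0.13, 95% interval -0.40 to 0.17, edgeR adjusted p 0.776). Without vehicle replicate 007 it was -0.06, as it was without evexomostat replicate 003. CANX encodes calnexin, the membrane-bound lectin of the same cycle. It ranged from 1045 CPM in vehicle replicate 001 to 2173 CPM in vehicle replicate 007, with a median of 1512. Under evexomostat it was 1515, 992.3, 1323, 1450.0 and 1446 CPM. Here vehicle replicate 001 was the lowest of its group, the reverse of its place for HSPA5 and HSP90B1. The log2 fold change was -0.23 (SE 0.19, 95% interval -0.63 to 0.18, edgeR adjusted p 0.671), and without that library it was -0.31 (SE 0.15, edgeR adjusted p 0.213). It shrank to -0.11 without vehicle replicate 007 and to -0.13 without evexomostat replicate 003.

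Of the disulfide isomerases, PDIA4 was close to 0 and PDIA6 had the widest treated spread of the set. PDIA4 encodes ERp72, an isomerase with several thioredoxin-like domains. It was 128.4 to 175.7 CPM under vehicle (median 140.4) and 151.9, 117.0, 149.999, 150.2 and 135.1 CPM under evexomostat. Its treated libraries lay on both sides of the vehicle median, and the log2 fold change was -0.03 (SE 0.12, 95% interval -0.29 to 0.23, edgeR adjusted p 0.945). The sign turned with scaling, to 0.06 with library totals only, and to 0.03 without vehicle replicate 007 or without evexomostat replicate 003. PDIA6 encodes P5, an isomerase that works with BiP and limits IRE1 signalling. It was 191.4 to 410.4 CPM under vehicle (median 354.8) and 342.3, 116.1, 294.9, 296.2 and 319.5 CPM under evexomostat. The lowest treated value, in replicate 003, was far below the other 4, whose values were close together. Its log2 fold change was -0.23 (SE 0.26, 95% interval -0.80 to 0.34, edgeR adjusted p 0.780), and it was -0.03 without evexomostat replicate 003 and -0.15 without vehicle replicate 007.

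XBP1 and its target DNAJB9 were lower in fitted value, with vehicle replicate 001 setting much of the distance. XBP1 was 109.6 to 224.7 CPM under vehicle (median 125.5) and 103.2, 120.9, 126.7, 110.5 and 113.9 CPM under evexomostat. The highest levels were in vehicle replicates 001 (224.7) and 007 (169.8), while the other 4 vehicle libraries, 109.6 to 127.0 CPM, overlapped the treated ones. For XBP1 the log2 fold change was -0.33 (SE 0.18, 95% interval -0.73 to 0.07, edgeR adjusted p 0.476), and without vehicle replicate 001 it was -0.15 (SE 0.12). DNAJB9 encodes ERdj4, a J-domain co-chaperone that helps BiP to bind IRE1 and to deliver proteins for degradation. It was 9.42 to 21.7 CPM under vehicle (median 14.5) and 12.0, 9.44, 10.8, 11.2 and 10.6 CPM under evexomostat. All 5 treated libraries lay below the vehicle median, but vehicle replicate 004, at 9.42 CPM, was as low as the lowest of them. Its log2 fold change was the most negative of the set, -0.43 (SE 0.19, 95% interval -0.84 to -0.02 for this gene alone, edgeR adjusted p 0.345). Without vehicle replicate 001 it was -0.28 (SE 0.15, edgeR adjusted p 0.270). In GENCODE 29 the span of DNAJB9 overlaps those of THAP5 and PNPLA8 on the opposite strand. Without strand, reads from any shared exon bases cannot be told apart. Whole gene spans were compared, and whether exons are shared was not tested.

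HERPUD1 and SDF2L1, like PDIA4, had no steady direction. HERPUD1 encodes HERP, a membrane protein of the ER degradation complex. It was 19.9 to 56.1 CPM under vehicle (median 33.5) and 42.0, 34.3, 38.3, 31.5 and 32.5 CPM under evexomostat. The treated range sat inside the vehicle range, and the log2 fold change was 0.02 (SE 0.21, 95% interval -0.43 to 0.47, edgeR adjusted p 0.985). The sign turned when single libraries were left out, from -0.10 without vehicle replicate 005 to 0.21 without vehicle replicate 001. SDF2L1 encodes a small ER protein that works with BiP and its J-domain partner. It was 8.31 to 27.9 CPM under vehicle (median 10.7) and 10.4, 12.3, 13.6, 10.8 and 12.3 CPM under evexomostat. Vehicle replicate 001 alone, at 27.9 CPM, put the vehicle mean (12.9 ± 7.44, SD, n = 6) above the treated mean (11.9 ± 1.29, SD, n = 5). SDF2L1 had a log2 fold change of -0.12 with it (SE 0.29, 95% interval -0.75 to 0.50, edgeR adjusted p 0.906) and 0.26 without it (SE 0.14, edgeR adjusted p 0.276).

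Leaving out the libraries in doubt changed no member's call. Without vehicle replicate 001, 0 of 10 members were called while the share over all genes rose to 5.22% (865 of 16565). The fitted change was then below 0 in 8 of 10 members, against 50.4% of all genes, with a members' median of -0.19. Without vehicle replicate 001 and evexomostat replicate 003, which was left out after the data had been seen, 0 of 10 were called against 3.9% of all genes. The members' median was then -0.14, with 7 below 0 and 3 above. Members with an adjusted p under 0.05 numbered 0 of 10 in the authors' deposited table, against 0.952% of its 28152 symbols. Of the members there, HSP90B1 had the lowest adjusted p, 0.758, with a log2 fold change of -0.30 in the authors' deposited table. PDIA4, HERPUD1 and SDF2L1 were above 0, at 0.06, 0.13 and 0.01, in the authors' deposited table.

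**Figure D2:**
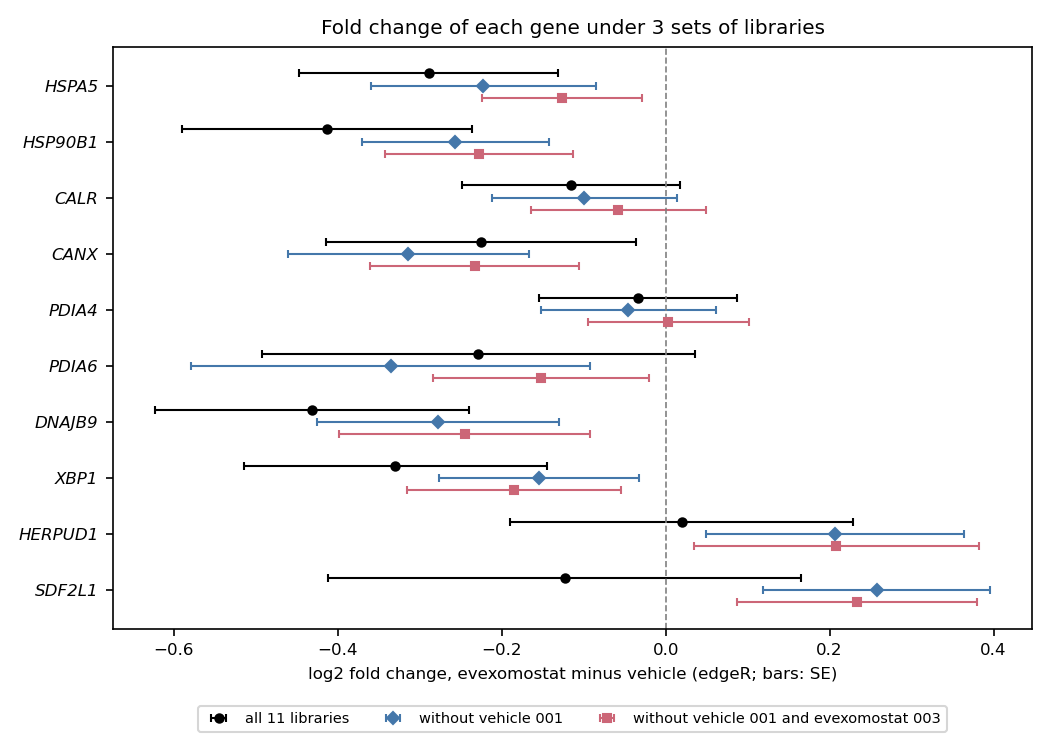
Log2 fold change of each gene (evexomostat minus vehicle, edgeR; bars are 1 SE) with all 11 libraries (black), without vehicle replicate 001 (blue) and without vehicle replicate 001 and evexomostat replicate 003 (red). HSP90B1 and DNAJB9 lie lowest with all libraries, at -0.41 and -0.43, and SDF2L1 crosses from -0.12 to 0.26.

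Single libraries stood far from the others of their group in some members. Vehicle replicate 001 had the highest vehicle level of 6 members (HSPA5, HSP90B1, DNAJB9, XBP1, HERPUD1 and SDF2L1) and the lowest of CANX and PDIA6. Relative to the median of the other 5 vehicle libraries, SDF2L1 was 2.61 times as high there, XBP1 1.81, HERPUD1 1.77 and HSP90B1 1.76, while CANX was at 0.677 and PDIA6 at 0.527. SDF2L1 in this library exceeded 95.3% of all tested genes by that ratio. Vehicle replicate 007 was highest for the other 4 members, CALR, CANX, PDIA4 and PDIA6, with ratios of 1.18 to 1.47. Evexomostat replicate 003 was lowest of its group in 7 members, all but XBP1, HERPUD1 and SDF2L1. PDIA6 stood at 0.377 of the median of the other 4 there, a ratio lower than all but 0.252% of tested genes, and HSPA5 at 0.646.

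**Figure D3:**
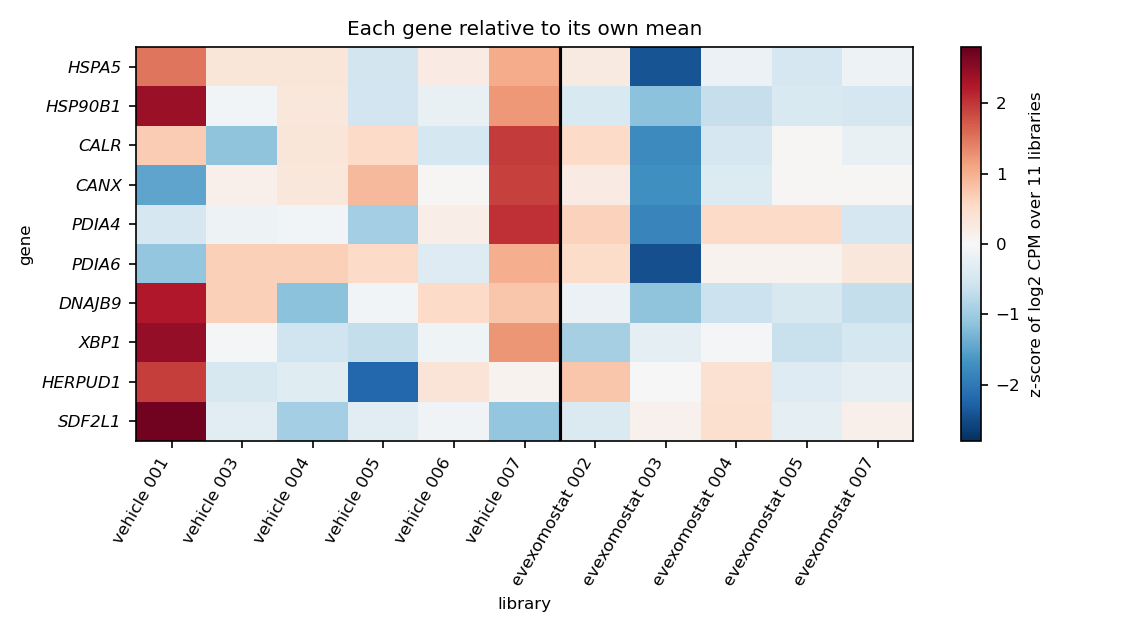
Each gene's log2 CPM as a z-score over the 11 libraries (rows: genes; columns: libraries, with a line between vehicle and evexomostat). Vehicle replicate 001 is high for 6 genes and low for CANX and PDIA6, vehicle replicate 007 is high for most, and evexomostat replicate 003 is low for 7 genes.

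Transcript length went with part of this pattern. Summed exon lengths, from GENCODE 29, run from 865 bases for SDF2L1 to 4447 for CANX. In vehicle replicate 001 the shortest gene had the highest ratio, and CANX and PDIA6 (3483 bases), which are among the 3 longest, had the lowest. Other members went against that order: HSPA5, the second longest at 3908 bases, was at 1.25, HERPUD1 (2946 bases) at 1.77, and CALR, the second shortest at 1903 bases, at 1.04. In evexomostat replicate 003 the 3 longest genes, PDIA6, HSPA5 and CANX, had the 3 lowest ratios, 0.377, 0.646 and 0.685. The part of length in these departures was not tested.

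**Figure D4:**
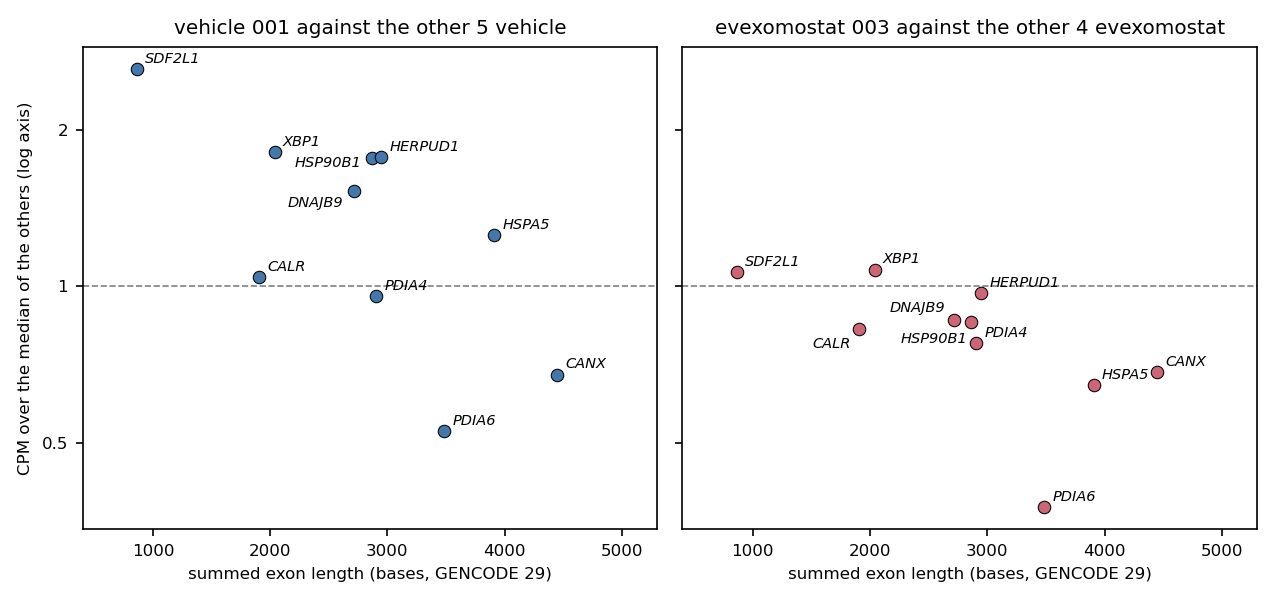
CPM of each gene in vehicle replicate 001 (left) and evexomostat replicate 003 (right) over the median of the other libraries of its group (log axis), against summed exon length in bases. SDF2L1, at 865 bases, is at 2.61 on the left, and PDIA6, at 3483 bases, is at 0.527 on the left and 0.377 on the right.

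Within groups most members were less variable under evexomostat. The coefficient of variation (SD over mean) was larger under vehicle in 8 of 10 members. HSPA5 (13.6% under vehicle, 18.1% under evexomostat) and PDIA6 (25.8% and 33.0%) went the other way. The median of the members was 26.7% under vehicle and 10.8% under evexomostat. Over all tested genes the medians were 28.8% and 15.98%, so the members shared this direction with genes at large. Without vehicle replicate 001 alone the value was still larger under vehicle in 8 of 10 members. Without evexomostat replicate 003 as well, the members' medians were 16.6% and 5.80%, with the larger value under vehicle in 10 of 10. Those of all tested genes were 19.6% and 12.2%. Replicate 003 was left out after it was seen to be lowest in 7 members, which narrows the treated spread by itself. The share of all genes with the larger value under vehicle was not counted. HSP90B1 was the steadiest under evexomostat at 6.67%, against 27.6% under vehicle. The difference in spread was not tested.

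The members did not move as 1 block across libraries. Over the 45 pairs, the Pearson correlation of log2 CPM across 11 libraries ranged from -0.72 to 0.89, with a median of 0.48; this is a description, since all pairs share the same libraries and scaling. The closest pair was HSP90B1 and XBP1 at 0.89, and CANX and PDIA6 reached 0.87. HSPA5 and HSP90B1 correlated at 0.82. SDF2L1 and CANX stood at the other end with -0.72. Single libraries set some of these values: without vehicle replicate 001, HSP90B1 and CANX went from 0.04 to 0.83, and HSP90B1 and SDF2L1 from 0.49 to -0.84. HSPA5 and HSP90B1 were at 0.81 without it. Among 13058 other genes with a mean log2 CPM of at least 1, those with the pattern most like the members' mean z-score were TBC1D22A (r = 0.93), STK3 (0.92), ARL6IP6 (0.92), SNX6 (0.92) and GDE1 (0.92) over 11 libraries. Without vehicle replicate 001 their values were 0.91, 0.85, 0.92, 0.87 and 0.87. They were picked as the highest of 13058, so a high r follows from the search, and the other libraries are the same ones. The members' own r with that score over 11 libraries ran from 0.29 for SDF2L1 to 0.95 for HSPA5.

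Levels between genes are given per kilobase of summed exon length, in CPM under vehicle. CALR was the most abundant at 459.7 ± 54.7 CPM per kilobase (SD, n = 6), followed by CANX at 353.7 ± 83.8, HSP90B1 at 202.4 ± 55.8 and HSPA5 at 163.0 ± 22.1. The ranges of CALR, CANX, HSP90B1 and HSPA5 each overlapped that of the next. PDIA6 (92.1 ± 23.7), XBP1 (70.9 ± 21.98) and PDIA4 (49.7 ± 5.67) formed a middle run with overlapping ranges, below that of HSPA5. SDF2L1 (14.97 ± 8.60), HERPUD1 (12.0 ± 4.04) and DNAJB9 (5.37 ± 1.505) were lowest, all below the range of PDIA4. HERPUD1's range (6.75 to 19.1) overlapped those of SDF2L1 and DNAJB9, which did not overlap each other, every vehicle value of DNAJB9 lying below the lowest of SDF2L1 (9.60). The order of the 10 genes was the same by mean under evexomostat, from CALR at 424.2 ± 39.8 CPM per kilobase (SD, n = 5) to DNAJB9 at 3.97 ± 0.345.

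The wider ER machinery was read from 7 lists of 76 genes, of which 74 were tested. ERN2 (0 to 5 counts per library) and ATF6B (1 to 13) were not. By edgeR's adjusted p, 0 of 74 passed, against 0.606% of all tested genes. By DESeq2 1 passed (CHAC1), against 649 of the 16653 genes kept. In edgeR 10 of the 74 had an unadjusted p under 0.05, 5 of them lower. Over all tested genes 13.4% had such a p in edgeR, and 8.55% had one and were lower. Among 9 BiP cofactors, 0 were called in either direction, with a median log2 fold change of -0.02, 4 above 0 and 5 below. DNAJC3, a co-chaperone that also inhibits PERK, was at 103.3 ± 26.5 CPM under vehicle and 78.6 ± 3.81 under evexomostat (log2 fold change -0.39, SE 0.16, edgeR adjusted p 0.300). DNAJB11, which feeds clients to BiP, was at 49.8 ± 5.57 and 59.7 ± 3.79 CPM (0.26, SE 0.11, edgeR adjusted p 0.321). These co-chaperones thus leaned opposite ways, and the vehicle and treated libraries overlapped in both. MANF, a secreted factor that binds BiP, was named after its values were seen. It was at 55.2 to 65.0 CPM under evexomostat and 34.9 to 48.9 in 5 vehicle libraries, but at 82.6 in vehicle replicate 001. Its log2 fold change was 0.25 (edgeR adjusted p 0.640) with all libraries and 0.47 (SE 0.10, edgeR adjusted p 0.0261) without that one.

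Oxidative folding genes (11) leaned lower without a call: 9 were below 0, with a median of -0.21. Of all tested genes 55.4% were below 0, with a median of -0.04. ERO1A and ERO1B encode the oxidases that recharge the isomerases. ERO1A was at 70.2 ± 23.2 CPM under vehicle and 52.8 ± 7.80 under evexomostat (log2 fold change -0.41, SE 0.21, edgeR adjusted p 0.421), and ERO1B at 22.4 ± 1.85 and 18.1 ± 1.84 (-0.31, SE 0.12, edgeR adjusted p 0.285). The glycoprotein cycle (7 genes) had a median of -0.06 and 0 calls. In it LMAN1, a cargo receptor for export from the ER, was at 163.0 ± 33.8 and 121.1 ± 21.5 CPM (-0.43, SE 0.17, edgeR adjusted p 0.289). UGGT1, the sensor that marks misfolded glycoproteins for another round, was at 117.1 ± 35.3 and 91.3 ± 3.94 CPM (-0.36, SE 0.18, edgeR adjusted p 0.401).

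ER-associated degradation (16 genes) and translocation (16 genes) had 13 and 15 genes below 0, 0 calls, and medians of -0.09 and -0.16. Over all tested genes 55.4% were below 0, and the median was -0.04. The translocation median was -0.01 without vehicle replicate 001. ERLEC1, a lectin of the degradation pathway, stood at 92.5 ± 8.97 CPM under vehicle and 76.9 ± 12.8 under evexomostat (edgeR adjusted p 0.414). EDEM3, which trims the sugars of misfolded glycoproteins, was at 54.2 ± 5.14 and 47.0 ± 5.39 (edgeR adjusted p 0.473). SPCS2, a signal peptidase subunit, was at 61.1 ± 15.8 and 51.1 ± 3.09, and SSR1, a translocon-associated protein, at 327.8 ± 75.2 and 266.7 ± 60.5, with edgeR adjusted p-values of 0.534 and 0.554. Treated and vehicle libraries overlapped in all 4.

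The sensors (7 tested) had a median of -0.08 and 0 calls. ERN1, the gene of IRE1, was at 13.9 ± 2.23 CPM under vehicle and 11.1 ± 0.910 under evexomostat (-0.33, SE 0.15, edgeR adjusted p 0.375). CREB3L1, an ATF6-like factor cleaved by the same proteases, was at 43.1 ± 14.5 and 66.8 ± 10.9 CPM (0.63, SE 0.23, edgeR adjusted p 0.246). The genes downstream of PERK and ATF4 (8) were the only list with a median above 0, at 0.21, and again 0 were called in edgeR. Of them 6 were above 0 and 2 below. The 2 below, ATF3 at -0.32 (SE 0.14) and DDIT3 at -0.12 (SE 0.32), were named after their values were seen. CHAC1, which breaks down glutathione, was at 5.82 ± 2.21 and 11.7 ± 2.91 CPM (1.01, SE 0.26, edgeR adjusted p 0.0992), and without vehicle replicate 001 its change was 1.22 (SE 0.21, edgeR adjusted p 0.0119). The authors' deposited table lists it at 1.13 with an adjusted p of 0.00832. It was the only 1 of the 76 genes under 0.05 there, against 0.952% of the 28152 symbols in the authors' deposited table. ASNS, asparagine synthetase, was at 1.93 ± 0.564 and 3.41 ± 1.06 CPM (0.82, SE 0.27, edgeR adjusted p 0.209). SESN2, a stress-induced inhibitor of mTORC1 signalling, was the only 1 of 74 genes whose groups did not overlap (2.97% of all tested genes), at 38.7 to 49.0 CPM under vehicle and 51.3 to 62.8 under evexomostat (0.34, SE 0.11, edgeR adjusted p 0.211). It was named after its values were seen.

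**Figure D5:**
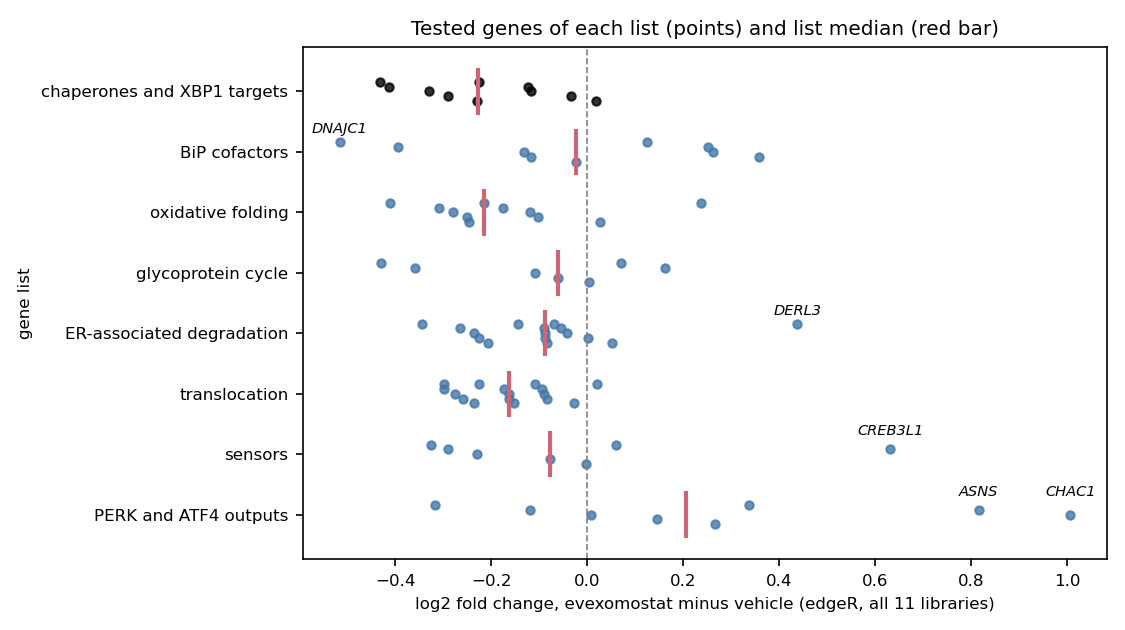
Log2 fold change (evexomostat minus vehicle, edgeR, all 11 libraries) of each tested gene, by list, with the list median as a red bar. The chaperones and XBP1 targets (black, median -0.23) lie mostly below 0, and CHAC1 (1.01) and ASNS (0.82) lie farthest above it.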

How the data were processed

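RNA was sequenced from 11 tumours as paired reads of 150 bases, per the labels' protocols. The submitters' processing notes name STAR 2.7.5c, featureCounts, Subread, edgeR, bcl2fastq 2.17 and GRCh37/hg19, without roles. Annotation, strandedness and treatment of reads from mouse cells are not given in the sources used here. The deposited count table holds whole read counts per symbol. The deposited RPM table holds the same counts scaled by the library total (largest difference 2e-13). The authors' deposited comparison table holds log2 fold changes, p-values, adjusted p-values and group means and standard deviations of the RPM, the last being a signal-type column per the file headers. Columns were matched to libraries by the code in each sample description.

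Genes were kept with filterByExpr (minimum count 10, total 15), scaled by TMM and tested in edgeR 4.0.16 (R 4.3.3) by glmQLFit and glmQLFTest, without covariates over all 11 libraries. P-values were adjusted by Benjamini-Hochberg over all 16653 tested genes, with a threshold of 0.05. The SE and 95% interval of a fold change are those implied by the F statistic and its degrees of freedom. Log2 CPM for correlations used a prior count of 2. Count totals of 22808033 to 39249329 set the counting error, which is only a part of the SE of a fold change. Within groups no pair of libraries was a duplicate (chi-square per degree of freedom at least 16.4 in 25 pairs). Alternatives were DESeq2 1.42.0, limma 3.58.1 (voom with quality weights, and trend on log2(RPM + 1) and log2(RPM + 0.1)), other scalings, no count filter, a replicate block and leaving out libraries. The count tests were also run on simulated counts in which no library stood apart, so their dependence on single libraries was not covered there.

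The members and gene lists were chosen with earlier results of these data known. All members are named. From each pathway list the called genes are named, or else the 2 with the smallest p, and the 5 genes with the pattern most like the members. Exon lengths and overlapping genes are from GENCODE 29 (GRCh38), used as lengths and names only, and promoters from RefSeq, where all 10 members matched.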

Additional observations from a re-analysis of the deposited data

Results flagged for a closer look

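The highest and lowest library of each group were compared with the rest for the 10 members, in 20 groups, and about 1 would stand apart by chance. There were 3. Vehicle replicate 001 had SDF2L1 at 27.9 CPM where its group otherwise spanned 8.31 to 11.4, a gap of 0.843 of the group's range. Evexomostat replicate 003 had PDIA6 at 116.1 CPM where its group otherwise spanned 294.9 to 342.3, with a gap of 0.790 of the range. Vehicle replicate 007 had PDIA4 at 175.7 CPM where its group otherwise spanned 128.4 to 144.8, with a gap of 0.653 of the range. In vehicle replicate 001 ribosomal protein genes held 14.5% of the counts; their part in the SDF2L1 value was not tested.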

How the results depend on the processing

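Over all 22 alternatives, 0 of 10 members passed an adjusted p of 0.05; edgeR, DESeq2 and limma gave the same 0. HSPA5, HSP90B1, CALR, CANX, PDIA6, DNAJB9 and XBP1 kept a change below 0 in all 22. PDIA4 turned positive with upper quartile scaling (0.0125), library totals only (0.0583), quality weights (0.0241), log2(RPM + 1) (0.0627), log2(RPM + 0.1) (0.0631) and both doubted libraries left out (0.00284). SDF2L1 did so with library totals only (0.00716), quality weights (0.223), the RPM values (0.0900 and 0.102) and both libraries left out (0.233). Leaving out 1 library at a time gave -0.0626 to 0.0309 for PDIA4, -0.0951 to 0.207 for HERPUD1 and -0.222 to 0.257 for SDF2L1. With the RPM values the log2 median over all genes shifted by 0.11 and 0.12. The cause of these turns was not tested.

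The 101 genes called over all genes became 62 with library totals only, 649 in DESeq2, 1059 with quality weights and 652 without both libraries, an alternative added after the data were seen. The share of calls that were higher was 28.7%, and 40.0% with upper quartile scaling, 54.8% with library totals only, and 58.1% and 55.9% with the RPM values. With 1 library left out the count was 1 to 865: 865 without vehicle replicate 001, 52, 46 and 56 without vehicle replicates 003, 004 and 007, and 2, 46, 28, 1 and 3 without evexomostat replicates 002, 003, 004, 005 and 007. The 74 pathway genes had 1 call in DESeq2 (CHAC1), against 649 of the 16653 genes kept. With quality weights they had 3 (CHAC1, MANF and CREB3L1), against 1059 of the 16653. With 1 library left out they had 0 to 2, the 2 without vehicle replicate 001 standing beside 5.22% of all tested genes. Without both libraries 3 were called (CHAC1, MANF and DNAJC1), beside 3.9% of all tested genes.

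Both groups hold replicates 003, 004, 005 and 007. Correlations between the deviations of each such couple from their group means were -0.27, 0.07, 0.05 and -0.10, and no pairing was taken from them. With the replicate block on those 8 libraries SDF2L1 was at 0.348, and with no replicate block on the same 8 it was at 0.343. Without the block 733 genes and 2 pathway genes (CHAC1 and LMAN1) were called, and with the replicate block 107 genes were.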
